A study of Rattus norvegicus with 12 samples.

Results

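The genes described here are those of DNA replication and mitosis, taken as the probe sets whose annotated gene symbol equals 1 of 45 listed symbols. Of the 45 genes, 42 were measured, by 59 probe sets, among 14217 genes with a single symbol in the whole series. Cdc6, Rrm2 and Tpx2 were not analysed here. Of the 42 measured genes, 11 had several probe sets, and each gene is represented by its brightest probe set (by mean over the arrays) unless another is named.

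The values are log2 expression levels in lung of male wild-type Sprague Dawley rats weighing 250 to 350 g, measured on 12 Affymetrix arrays in 4 groups of 3. Sham animals (titled as controls in the labels) had the sham procedure. In BD animals brain death was brought about by inflating a 4 Fr. Fogarty balloon catheter outside the dura. SEW animals received SEW-2871, an agonist of the sphingosine 1-phosphate receptor S1P1, intravenously at 0.1 mg/kg, and BD/SEW animals received the same dose 15 min after brain death. The labels give no age, time of sampling or vehicle group, and leave unsaid if SEW animals went through the sham procedure. Nor do they say that the 3 samples of a group came from separate animals, so p-values measure only the spread between these samples, which may be technical.

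A cell that enters the cycle first makes D-type cyclins, which with their kinases release the E2F transcription factors that switch on replication genes. The MCM helicase is loaded on origins by Cdc6 and Cdt1 and then unwinds DNA, while ribonucleotide reductase and thymidylate synthase supply nucleotides. Later, Cdk1 with A- and B-type cyclins, the Aurora and Polo kinases and the spindle motors carry out mitosis, and their genes are held off in resting cells by complexes that bind a promoter element called CHR. Most cells of an adult lung rest, so transcripts of mitotic genes come from a small share of cells in it. In a whole-lung sample, fewer cycling cells and less RNA per cycling cell cannot be told apart.

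The arrays had medians between 7.34 and 7.41, and their number limits the precision. The mean of 6 markers of alveolar type 2 cells, the surfactant cells of the lung, was 13.03 to 13.58 on every array, so the lung label held. Other tissue differed between arrays. The mean of 17 measured cardiac muscle markers lay at 9.34 to 10.39 on the sham arrays, at 11.35 on the second BD array, and at 5.85 to 7.95 on the remaining 8. That of 9 adipose markers lay at 8.56 to 9.58 on the sham arrays, at 9.06 on the second BD array, and at 6.32 to 7.15 on the remaining 8. Airway epithelium followed sham too, with a mean over 5 markers of 12.52 to 12.72 in sham and 8.98 to 11.17 in SEW. The 6 measured heat shock genes averaged 13.37 in SEW replicate 2 and 10.81 to 11.46 on the other 11 arrays.

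SEW replicate 2 also stood apart in the genes described here. It was the single lowest of the 12 arrays for 22 of the 42 genes, while sham replicate 3 was the single highest for 13 and sham replicate 1 for 10. The mean over the 42 genes was 8.15, 8.01 and 8.21 in sham, 8.08, 7.91 and 7.82 in BD, 7.91, 7.51 and 7.93 in SEW, and 8.07, 7.97 and 8.14 in BD/SEW. The SEW arrays thus lay below every sham and BD/SEW array, and SEW replicate 2 below all others. The calls, medians and counts over the 42 genes against SEW that follow are given with and without that array. So are the numbers of calls in the wider lists. Counts by role group and marker counts are given on all arrays only. Leaving that array out of the non-overlap counts and the wider lists was chosen after seeing the data. Signal over background was not measured, and 5 of the 42 genes (Ccna2, Bub1b, Ccne1, Gins1 and Kif11) averaged under the lower quartile of the arrays (6.03 to 6.13 over the 20826 probe sets with 1 symbol), where small differences are least certain.

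**Figure D1:**
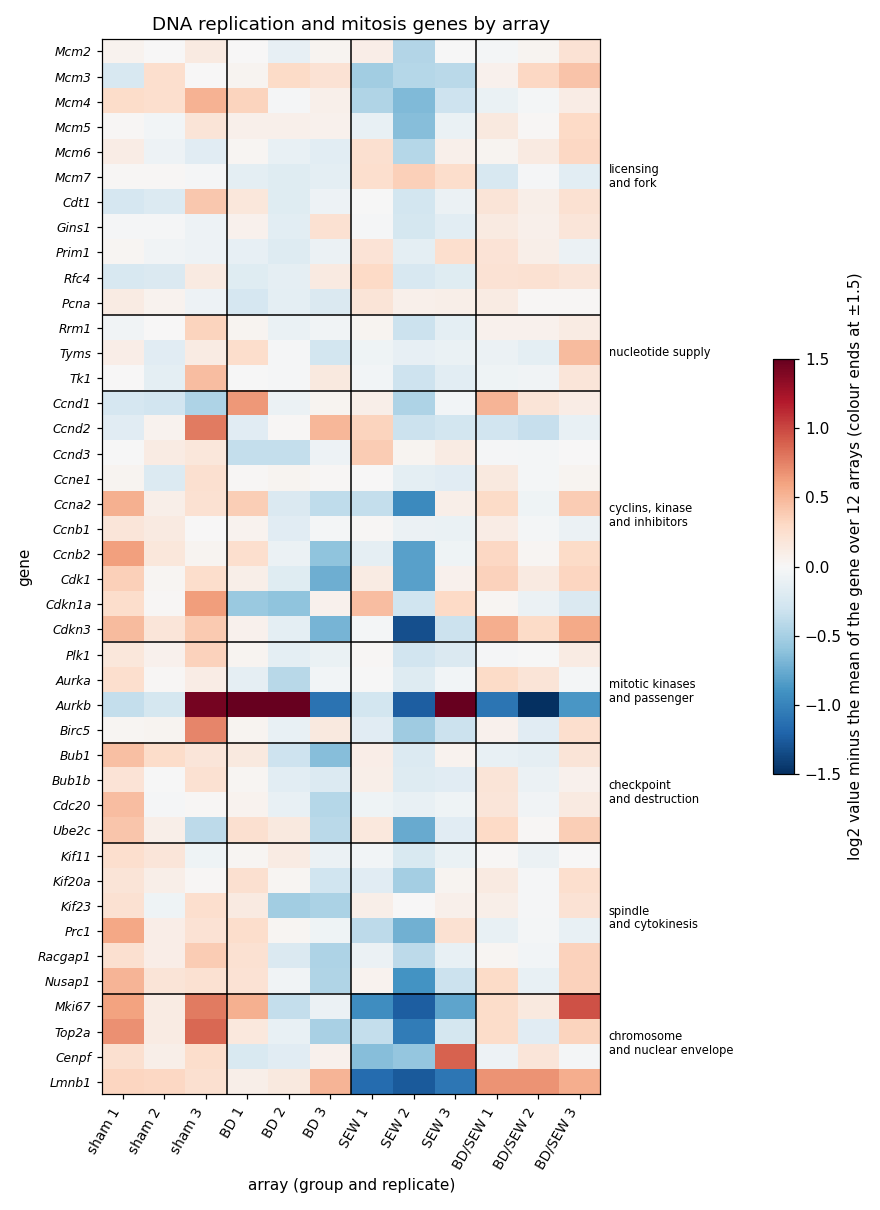
Log2 value of each of the 42 genes (rows, grouped by role) on each of the 12 arrays (columns), less the mean of the gene over the 12 arrays, with colours ending at 1.5 on either side. Lmnb1 and Mki67 are low on all 3 SEW arrays, SEW replicate 2 is low for most genes, and Aurkb lies high on 4 arrays from 3 groups.

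The first comparison, SEW against sham, addresses the agonist on its own. Lmnb1, Mki67, Top2a and Mcm4 fell, and no gene of the 42 rose. These 4 of 42 genes (9.52%) stand against 5.84% of all genes called in either direction, 3.4% higher and 2.43% lower. At an unadjusted p under 0.05 were 16 of the 42 (38.1%), against 25.6% of all genes. The median difference over the 42 genes was -0.26 on the log2 scale, with 35 below 0, against a median of 0.02 over all genes, of which 52.7% were above 0. Without SEW replicate 2 the calls were Lmnb1, Mki67 and Mcm4 (7.14%, against 3.53% of all genes), the median was -0.15, and 33 genes were below 0. At an unadjusted p under 0.05 were then 10 of the 42, against 3179 of 14217 genes, a share near that of all genes.

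Lmnb1 encodes lamin B1, a filament protein of the nuclear envelope that is made in most cell types and declines in senescent cells. Its level was 10.87, 10.86 and 10.79 in sham, 10.64, 10.7 and 11.06 in BD, 9.39, 9.29 and 9.46 in SEW, and 11.22, 11.22 and 11.09 in BD/SEW (log2). Every SEW array lay below every array of the other groups, by more than the spread within any group. Lmnb1 fell by 1.46 ± 0.11 in SEW against sham (log2 difference ± SE, n = 3 per group; adjusted p = 0.00033 by limma), which is 2.75-fold. It fell by 1.42 ± 0.12 (adjusted p = 0.00025) without SEW replicate 2. With the cardiac marker mean of each array as a covariate it fell by 1.51 ± 0.16 (adjusted p = 0.0053). In that fit 0.169% of all genes passed in this comparison, against 5.84% without the covariate. A second Lmnb1 probe set read 7.31, 7.39 and 7.4 in sham and 6.37, 6.13 and 6.34 in SEW and fell by 1.09 ± 0.18 (adjusted p = 0.012 over all probe sets), while the remaining one stayed between 5.09 and 5.33 on all arrays, under the lower quartile.

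Mki67 encodes the Ki-67 protein, which coats mitotic chromosomes and is used as a stain for cycling cells. Its level was 7.63, 7.15 and 7.81 in sham, 7.56, 6.67 and 6.94 in BD, 6.1, 5.8 and 6.24 in SEW, and 7.31, 7.18 and 7.99 in BD/SEW. The SEW arrays lay below all others, and close to the lower quartile of the arrays, so the size of the change is uncertain. Mki67 fell by 1.48 ± 0.27 in SEW against sham (2.8-fold, adjusted p = 0.014). Without SEW replicate 2 the fall was by 1.36 ± 0.3 (adjusted p = 0.0379). With the cardiac covariate, where only 0.169% of all genes passed, the difference was -1.7 ± 0.37 without passing (adjusted p = 0.12).

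Top2a encodes topoisomerase II alpha, which untangles DNA strands during replication and chromosome separation. Its level was 8.62, 8.06 and 8.79 in sham, 8.09, 7.82 and 7.45 in BD, 7.58, 6.88 and 7.67 in SEW, and 8.21, 7.76 and 8.27 in BD/SEW. The SEW arrays lay below the sham and BD/SEW arrays but overlapped the BD arrays. Top2a fell by 1.11 ± 0.26 in SEW against sham (2.16-fold, adjusted p = 0.033), a call that was lost without SEW replicate 2 (-0.86 ± 0.25, adjusted p = 0.0793), without sham replicate 3 (-0.96 ± 0.28, adjusted p = 0.0999) and without sham replicate 1 (adjusted p = 0.083). It was lost as well with the cardiac covariate (-1.1 ± 0.36, adjusted p = 0.28), where only 0.169% of all genes passed. Other fits that lost it were those with the compared arrays only (adjusted p = 0.105), with array weights (adjusted p = 0.052) and with 3 arrays left out together (adjusted p = 0.14). The second Top2a probe set differed by -0.48 ± 0.19 without passing. Cenpf, a kinetochore protein gene and the fourth gene of the chromosome and nuclear envelope group, read 7.04, 7.09 and 8.56 in SEW against 7.92, 7.76 and 7.94 in sham, with SEW replicate 3 above every other array.

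Of the 11 measured origin licensing and replication fork genes, 1 fell in SEW against sham and 0 rose. Mcm4, a subunit of the replicative helicase, was 9.12, 9.09 and 9.36 in sham, 9.17, 8.82 and 8.92 in BD, 8.39, 8.18 and 8.53 in SEW, and 8.74, 8.81 and 8.95 in BD/SEW. It fell by 0.82 ± 0.13 in SEW against sham (1.77-fold, adjusted p = 0.0089), and by 0.73 ± 0.14 without SEW replicate 2 (adjusted p = 0.019). All SEW arrays were below all others. With the cardiac covariate the difference was -0.93 ± 0.18 (adjusted p = 0.1), in a fit where only 0.169% of all genes passed. Mcm3, another subunit, was 8.02, 8.52 and 8.27 in sham, 8.31, 8.55 and 8.48 in BD, 7.74, 7.84 and 7.86 in SEW, and 8.33, 8.57 and 8.69 in BD/SEW. Its SEW arrays were the lowest too, but the difference from sham was -0.46 ± 0.14 and did not pass (adjusted p = 0.077), nor without SEW replicate 2 (-0.47 ± 0.16, adjusted p = 0.13). Mcm7, a further subunit, was 9.97, 9.97 and 9.93 in sham, 9.81, 9.77 and 9.8 in BD, 10.2, 10.31 and 10.22 in SEW, and 9.71, 9.93 and 9.79 in BD/SEW, so its SEW arrays were above all others, with a difference from sham of 0.29 ± 0.08 that did not pass (adjusted p = 0.068), nor without SEW replicate 2 (0.25 ± 0.09, adjusted p = 0.14).

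The other 8 measured genes of this group differed from sham by between -0.33 and 0.14 in SEW, and none passed. They were Mcm2, Mcm5, Mcm6, the loading factor gene Cdt1, the GINS complex gene Gins1, the primase gene Prim1, the clamp loader gene Rfc4, and Pcna, which encodes the sliding clamp of DNA polymerases. Pcna read 12.09, 12.03 and 11.9 in sham, 11.72, 11.82 and 11.75 in BD, 12.16, 12.05 and 12.06 in SEW, and 12.1, 11.99 and 11.99 in BD/SEW. The BD arrays lay below all others, and the SEW and sham arrays overlapped, with a SEW difference of 0.08 ± 0.08 (95% interval -0.09 to 0.25). Of the nucleotide supply genes, Rrm1, Tyms and Tk1 lay between -0.28 and -0.12 and did not pass.

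The mitotic genes were lower in SEW than in sham by smaller amounts that did not pass. All 6 measured spindle and cytokinesis genes (Kif11, Kif20a, Kif23, Prc1, Racgap1 and Nusap1) had differences between -0.7 and -0.09. All 4 checkpoint and protein destruction genes (Bub1, Bub1b, Cdc20 and Ube2c) lay between -0.32 and -0.23, and all 4 mitotic kinase and chromosomal passenger genes (Plk1, Aurka, Aurkb and Birc5) between -0.61 and -0.21. Cdk1, the kinase that drives entry into mitosis, was 8.05, 7.72 and 7.95 in sham, 7.78, 7.51 and 6.96 in BD, 7.81, 6.88 and 7.76 in SEW, and 8.04, 7.83 and 8.01 in BD/SEW. SEW replicate 2 and BD replicate 3 were low, and the other SEW arrays lay within the sham range, with a difference of -0.42 ± 0.25 (adjusted p = 0.32). Over the 42 genes the SEW and sham arrays did not overlap in 16 (38.1%), 15 of them lower in SEW, against 27.1% of all genes. With SEW replicate 2 left out, and so fewer arrays to overlap, it was 18 (42.9%) against 38.1% of all genes.

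**Figure D2:**
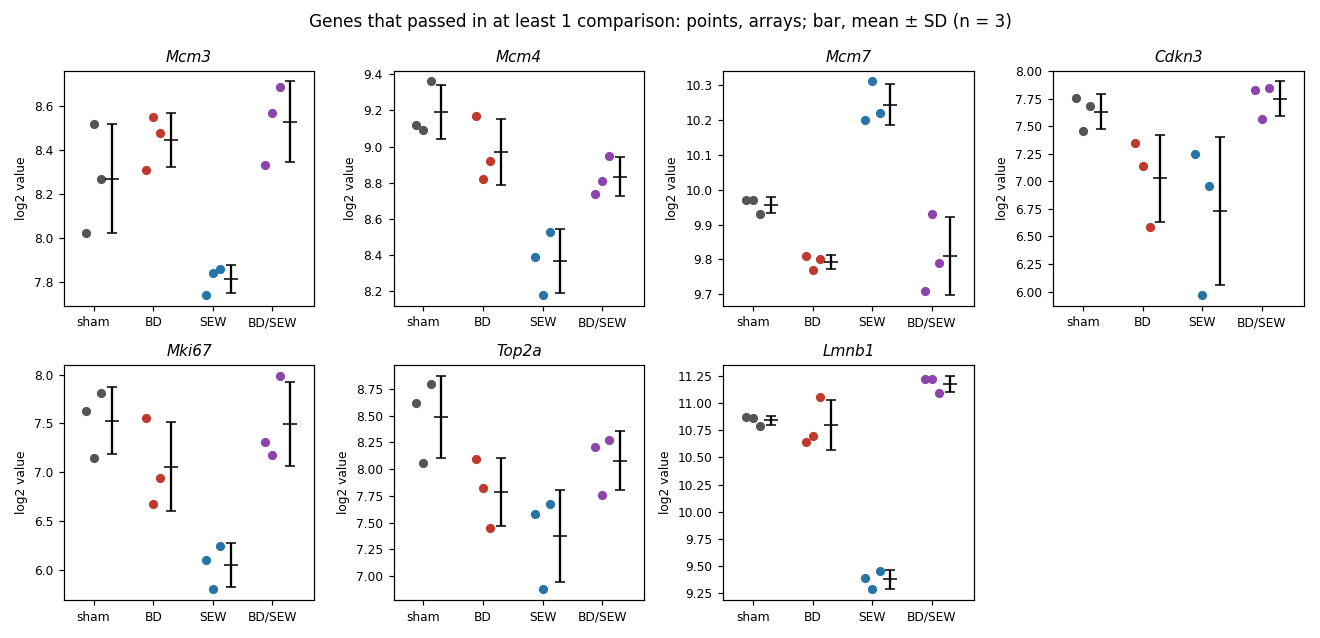
Log2 values of the 7 genes that passed in at least 1 comparison, by group, with a point for each array and a bar for the mean ± SD (n = 3); each panel has its own axis range. The SEW arrays are the lowest of all for Lmnb1, Mki67, Mcm3 and Mcm4, and the highest for Mcm7.

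Markers of several other tissues and cell types moved with this comparison. All 17 cardiac markers lay without overlap below sham in SEW, with 1 called, and of the 9 adipose markers 7 lay below without overlap and 4 fell. Of 5 airway markers 2 fell, and of 6 monocyte and macrophage markers 1 fell. Of 6 endothelial markers 1 rose, and their mean was 12.02 to 12.1 in SEW and 11.73 to 11.96 in sham. All 6 alveolar type 2 markers were above 0, 4 of them without overlap, with 0 called by limma and 5 at an unadjusted p under 0.05. The T cell mean over 10 markers was 6.72 to 6.94 in SEW and 6.88 to 7.06 in sham, with 0 of 10 called by limma and 2 at an unadjusted p under 0.05. The erythroid mean over 9 markers was 6.79 to 7.58 in SEW and 6.75 to 7.38 in sham, with 0 called and 0 at an unadjusted p under 0.05. The mean over 6 neutrophil markers was 9.77 to 11.43 in SEW and 10.59 to 11.61 in sham. Of these 6, 5 were below 0, with 1 called and 3 at an unadjusted p under 0.05. All 5 B and plasma cell markers were below 0 (median difference -0.46), with 0 called and 2 at an unadjusted p under 0.05. Their part in the results on replication and mitosis genes was not tested, beyond the cardiac covariate values given beside Lmnb1, Mki67, Top2a and Mcm4.

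The comparison of BD/SEW with SEW addresses brain death in the presence of the agonist. It shares the SEW arrays with the one above. Lmnb1, Mki67, Mcm3, Mcm4 and Cdkn3 rose and Mcm7 fell, which is 6 of 42 genes (14.3%) against 9.79% of all genes called, 4.75% higher and 5.04% lower. The median difference was 0.22 with 35 genes above 0, against a median of -0.01 over all genes. At an unadjusted p under 0.05 were 12 of the 42 (28.6%), against 23.8% of all genes. Without SEW replicate 2 the calls were Lmnb1, Mki67, Mcm3 and Mcm7 (9.52%, near the 8.4% of all genes). The median was then 0.15, with 33 genes above 0. At an unadjusted p under 0.05 were then 9 of the 42, against 3024 of 14217 genes, a share near that of all genes. The cardiac mean was 5.85 to 7.44 in SEW and 6.04 to 7.95 in BD/SEW, so those ranges overlapped here. The neutrophil mean was 9.77 to 11.43 in SEW and 11.96 to 12.41 in BD/SEW, where 3 of 6 markers rose, and its part was not tested.

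Lmnb1 rose by 1.8 ± 0.11 (3.47-fold, adjusted p = 1.1e-05 by limma, n = 3 per group), and by 1.75 ± 0.12 without SEW replicate 2. The second Lmnb1 probe set, at 8.36, 8.19 and 7.71 in BD/SEW, rose by 1.81 ± 0.18. Mki67 rose by 1.45 ± 0.27 (2.73-fold, adjusted p = 0.0056), and by 1.32 ± 0.3 without SEW replicate 2 (adjusted p = 0.0211). Both genes were called in each of the 6 fits that dropped a compared array and in all 9 other alternative fits. Top2a was 0.7 ± 0.26 higher without passing (adjusted p = 0.11).

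Among the helicase subunits, Mcm3 rose by 0.72 ± 0.14 (1.64-fold, adjusted p = 0.0082) and Mcm7 fell by 0.43 ± 0.08 (1.35-fold, adjusted p = 0.0077). Each held in all 6 fits with an array left out, Mcm3 at 0.73 ± 0.16 and Mcm7 at -0.4 ± 0.09 without SEW replicate 2, and in all 9 other alternatives. Mcm4 rose by 0.47 ± 0.13 (adjusted p = 0.048), but passed in only 1 of the 6 fits with an array left out and was 0.37 ± 0.14 higher without SEW replicate 2 (adjusted p = 0.133). The subunits of this ring-shaped complex thus did not change in 1 direction. Mcm5 differed by 0.44 ± 0.15, Mcm6 by 0.2 ± 0.16 and Mcm2 by 0.19 ± 0.14, none of which passed.

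Cdkn3 encodes a phosphatase that removes the activating phosphate from cyclin-dependent kinases. Its level was 7.76, 7.46 and 7.68 in sham, 7.35, 7.14 and 6.59 in BD, 7.25, 5.97 and 6.96 in SEW, and 7.83, 7.57 and 7.85 in BD/SEW. SEW replicate 2 lay far below the other SEW arrays. Cdkn3 rose by 1.02 ± 0.29 (2.03-fold, adjusted p = 0.045), with 0.64 ± 0.21 without SEW replicate 2 (1.56-fold, adjusted p = 0.0917), and it passed in only 1 of the 6 fits with an array left out. Over the 42 genes, the BD/SEW and SEW arrays did not overlap in 17 (40.5%), 15 higher and 2 lower, against 31.8% of all genes, 13.2% higher and 18.6% lower. It was 19 (45.2%) against 43.2% of all genes without SEW replicate 2.

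**Figure D3:**
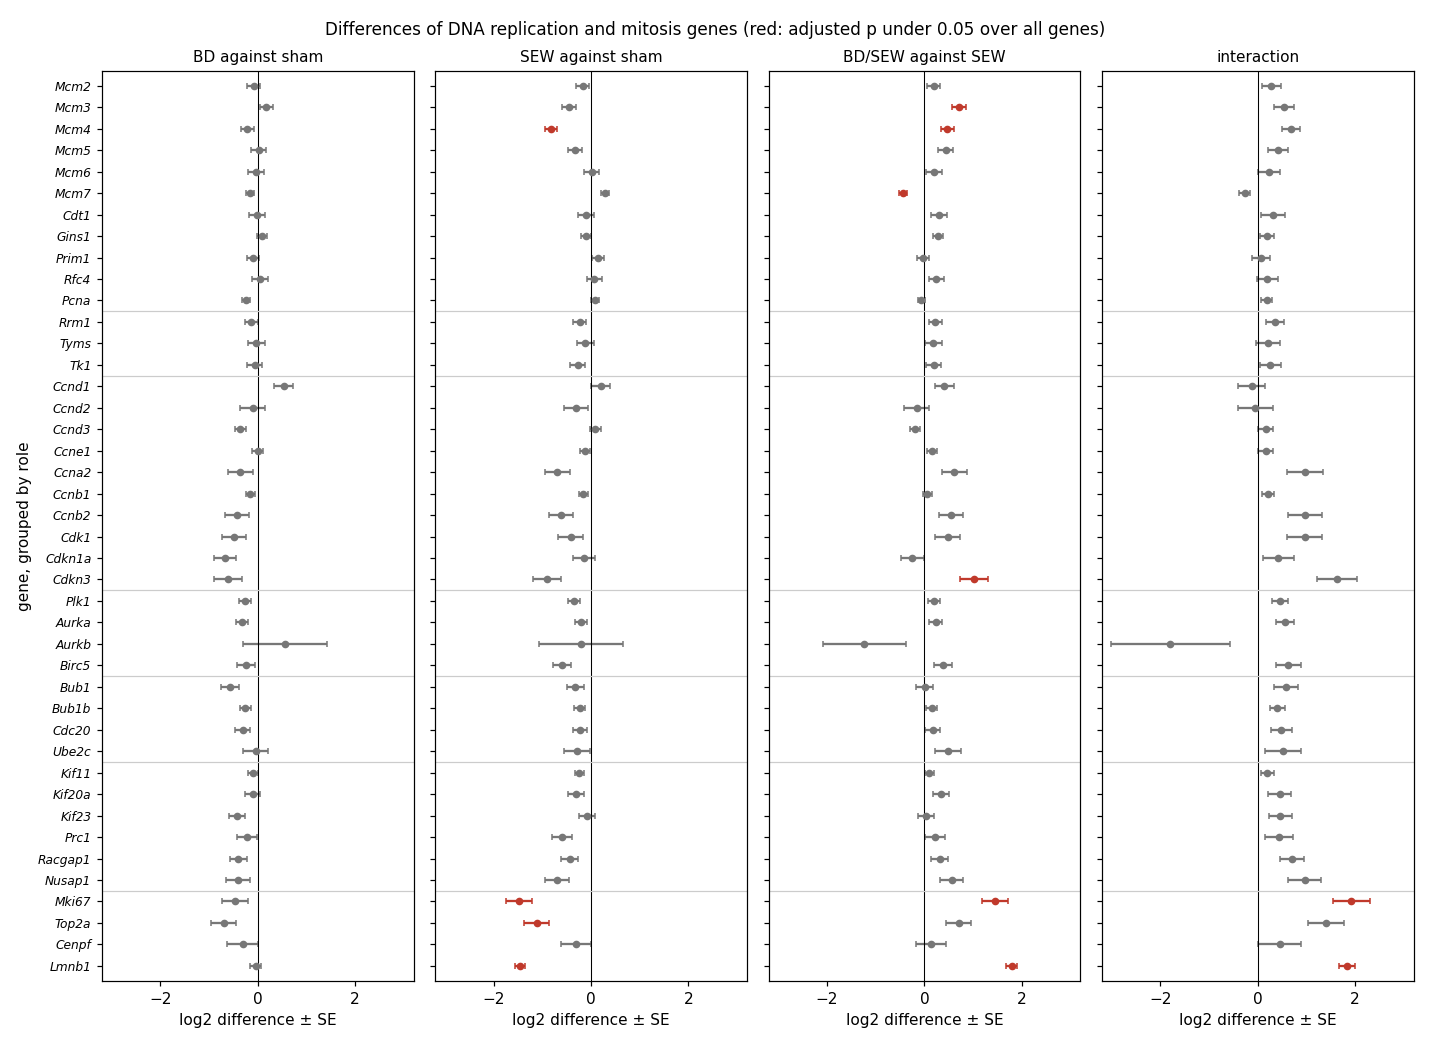
Log2 difference ± SE of each of the 42 genes (rows, grouped by role) for BD and for SEW against sham, for BD/SEW against SEW and for the interaction, with red for an adjusted p under 0.05 over all 14217 genes. Calls appear in the 3 panels that involve SEW, 4, 6 and 2 in number, and none appear in BD against sham.

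The interaction, the brain-death difference with the agonist less that without it, asks if brain death acts differently with the agonist than without it. Lmnb1 and Mki67 passed, which is 2 of 42 genes (4.76%) against 0.95% of all genes, 0.851% above 0. Of 6 neutrophil markers 1 passed in the interaction as well (median 1.26). Of 9 adipose markers 7 were above 0 (median 2.28, 5 at an unadjusted p under 0.05), as were 17 of 17 cardiac markers (median 1.98, 1 at that p), with 0 called by limma. All 5 airway and all 5 B and plasma cell markers were above 0 too. All 6 endothelial, all 6 alveolar type 2 and all 6 heat shock genes were below 0. Beyond the fit with the cardiac covariate, the part of these markers was not tested. Lmnb1 differed by -0.04 ± 0.11 between BD and sham but by 1.8 between BD/SEW and SEW, giving an interaction of 1.84 ± 0.16 (adjusted p = 0.00071), which was called in all 12 fits with an array left out and in all 8 other alternatives. Mki67 had an interaction of 1.92 ± 0.38 (adjusted p = 0.04), called in only 2 of the 12 fits with an array left out, with 1.8 ± 0.4 without SEW replicate 2 (adjusted p = 0.0601). Cdkn3, at 1.63 ± 0.41 (adjusted p = 0.099), and Top2a, at 1.41 ± 0.36 (adjusted p = 0.12), had the largest interactions above 0 among the genes that did not pass. Aurkb, described below, was at -1.79 ± 1.21 (adjusted p = 0.6). Of the 42 genes 38 had an interaction above 0, with a median of 0.43, and 18 (42.9%) had an unadjusted p under 0.05, against 46.4% of all genes above 0, a median of -0.02 and 12.5% with an unadjusted p under 0.05. Without SEW replicate 2 Lmnb1 alone passed (2.38%, against 1.65% of all genes). The median was then 0.25, with 37 above 0 and 13 at an unadjusted p under 0.05, against 1680 of 14217 genes. The interaction uses the same arrays as the other comparisons and is no separate support for them.

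Promoters of 5 genes called in at least 1 comparison are shown next, to let the elements named above be seen beside the values. The windows run from 250 bases before to 50 after the start of each gene, from RefSeq on assembly GRCr8, and 35 of the 42 measured genes had one. Mcm4, Ccna2, Ccnd1, Ccnd2, Aurkb, Ube2c and Racgap1 had none. Cdkn3 had 2 overlapping windows, which are described but not printed. Capitals mark, on either strand, the CHR word TTTGAA and its variant spelled TTCGAA. They also mark 4 E2F words. These are spelled TTGGCGC, then in a second form TTCGCGC, in another form TTCCCGC, and in the last form TTGCCGC. The windows are printed 5′ to 3′ on the strand of the gene.
Lmnb1 promoter (GRCr8, chr18:52373689-52373988, plus strand): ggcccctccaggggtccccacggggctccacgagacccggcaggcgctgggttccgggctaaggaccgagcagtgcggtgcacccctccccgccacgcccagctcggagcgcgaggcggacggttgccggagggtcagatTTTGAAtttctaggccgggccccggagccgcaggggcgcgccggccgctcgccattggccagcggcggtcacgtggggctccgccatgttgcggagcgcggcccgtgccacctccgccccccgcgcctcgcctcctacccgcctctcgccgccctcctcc
Mki67 promoter (GRCr8, chr1:199952544-199952843, minus strand): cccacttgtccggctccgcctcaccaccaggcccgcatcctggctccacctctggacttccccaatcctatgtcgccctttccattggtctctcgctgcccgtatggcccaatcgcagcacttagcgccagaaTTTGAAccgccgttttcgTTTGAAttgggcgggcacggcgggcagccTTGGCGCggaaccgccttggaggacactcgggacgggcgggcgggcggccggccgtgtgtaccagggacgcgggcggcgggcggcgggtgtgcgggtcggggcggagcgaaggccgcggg
Top2a promoter (GRCr8, chr10:84473044-84473343, minus strand): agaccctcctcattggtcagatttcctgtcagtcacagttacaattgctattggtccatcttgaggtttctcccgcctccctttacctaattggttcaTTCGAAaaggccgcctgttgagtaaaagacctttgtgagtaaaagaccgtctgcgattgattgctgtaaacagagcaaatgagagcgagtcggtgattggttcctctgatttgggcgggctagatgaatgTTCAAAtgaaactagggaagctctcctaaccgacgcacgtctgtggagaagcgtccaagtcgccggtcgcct
Mcm3 promoter (GRCr8, chr9:30733697-30733996, minus strand): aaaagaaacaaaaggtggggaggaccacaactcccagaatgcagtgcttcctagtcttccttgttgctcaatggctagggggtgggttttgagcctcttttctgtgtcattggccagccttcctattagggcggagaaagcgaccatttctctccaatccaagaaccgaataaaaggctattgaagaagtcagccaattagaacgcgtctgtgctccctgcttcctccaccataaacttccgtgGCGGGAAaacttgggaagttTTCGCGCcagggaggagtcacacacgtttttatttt
Mcm7 promoter (GRCr8, chr12:22163129-22163428, minus strand): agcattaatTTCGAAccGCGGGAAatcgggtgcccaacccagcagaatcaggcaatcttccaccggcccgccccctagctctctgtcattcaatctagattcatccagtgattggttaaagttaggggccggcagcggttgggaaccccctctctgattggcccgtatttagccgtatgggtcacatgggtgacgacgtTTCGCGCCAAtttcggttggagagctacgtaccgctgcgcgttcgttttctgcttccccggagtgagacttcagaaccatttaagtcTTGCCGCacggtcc

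The Lmnb1 window held 1 CHR match, starting 110 bases before the gene start, and no E2F match. Mki67 held 2 CHR matches, 117 and 99 bases before the start, and 1 E2F match at 70 bases. Top2a held 2 CHR matches, at 152 and 22 bases, and no E2F match. Mcm3 held 2 E2F matches and no CHR match, and Mcm7, which fell where Mcm3 rose in BD/SEW against SEW, held 4 E2F matches and 1 CHR match at 241 bases. Both Cdkn3 windows held the same single CHR match, 161 or 149 bases before the start by window, and no E2F match. Over the 35 genes with a window, 17 held a CHR match, against 19.7% of 33469 rat promoter windows, and 15 held an E2F match, against 9.52%. A CCAAT box (CCAAT, either strand), the site of the factor NF-Y, stood in 25 of the 35 and in 37.5% of all windows, and in the Mki67 and Mcm7 windows a CCAAT match shares bases with a CHR or E2F match. A match is a run of letters and not a measured binding site.

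Brain death on its own is addressed by BD against sham. By limma 0 of the 42 genes passed, against 0.591% of all genes, while 11 (26.2%) had an unadjusted p under 0.05, against 11% of all genes. The median difference was -0.19 with 36 genes below 0, against a median of 0 over all genes, and 10 of the 42 did not overlap (23.8%, against 15.7% of all genes). Top2a differed by -0.7 ± 0.26 (95% interval -1.27 to -0.14, adjusted p = 0.32) and Mki67 by -0.47 ± 0.27. Pcna differed by -0.24 ± 0.08 (95% interval -0.41 to -0.07, adjusted p = 0.23), and passed only with array weights (-0.29, adjusted p = 0.04). The cardiac mean ran from 6.2 to 11.35 in BD, and 0 of 17 cardiac markers lay without overlap, passed, or had an unadjusted p under 0.05. Of 9 adipose markers 6 had an unadjusted p under 0.05 (median difference -2.23), as did 2 of 5 airway markers (median -1.58), with 0 called in both lists by limma. Their part in the values of the replication and mitosis genes was not tested.

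None of the D-type cyclins, which start the cycle, passed after brain death. Ccnd1 (cyclin D1) was 11.38, 11.34 and 11.17 in sham, 12.28, 11.54 and 11.67 in BD, 11.72, 11.17 and 11.59 in SEW, and 12.14, 11.83 and 11.74 in BD/SEW. On this probe set all BD and BD/SEW arrays lay above all sham arrays. The BD difference was 0.53 ± 0.2 (1.45-fold, 95% interval 0.1 to 0.96, adjusted p = 0.32) and did not pass. The other Ccnd1 probe sets differed by 0.58 ± 0.2 and 0.35 ± 0.2. In both of them BD and sham overlapped, with sham replicate 3 at 9.77 and 11.59 and BD replicate 2 at 9.76 and 11.39. Ccnd3 (cyclin D3) was 10.78, 10.91 and 10.95 in sham, 10.43, 10.43 and 10.71 in BD, 11.16, 10.83 and 10.91 in SEW, and 10.77, 10.75 and 10.79 in BD/SEW. Its BD arrays lay below all others, with a difference from sham of -0.36 ± 0.11 that did not pass (adjusted p = 0.21). Ccnd2 (cyclin D2) was 11.11, 11.33 and 12.06 in sham, 11.11, 11.3 and 11.77 in BD, 11.61, 10.95 and 11 in SEW, and 10.99, 10.93 and 11.16 in BD/SEW, with overlap between BD and sham. Cyclin E1, A2, B1 and B2 transcripts (Ccne1, Ccna2, Ccnb1 and Ccnb2) differed from sham by between -0.42 and 0 in BD, and none passed.

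Cdkn1a encodes an inhibitor of cyclin-dependent kinases that p53 induces. It was 12.41, 12.16 and 12.77 in sham, 11.58, 11.54 and 12.21 in BD, 12.61, 11.84 and 12.44 in SEW, and 12.17, 12.06 and 11.92 in BD/SEW. BD replicates 1 and 2 were the lowest arrays, but BD replicate 3 lay within the sham range. The difference in BD was -0.67 ± 0.23 (95% interval -1.17 to -0.17, adjusted p = 0.27). The second Cdkn1a probe set, at 7.74, 7.3 and 6.88 in sham and 7.05, 6.77 and 7.64 in BD, differed by -0.15 ± 0.28, and in SEW it lay at 8.04, 8.15 and 7.83, above sham by 0.7 ± 0.28 without passing, where the first probe set differed by -0.15 ± 0.23. The Cdkn1a probe sets thus disagreed in sign there.

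**Figure D4:**
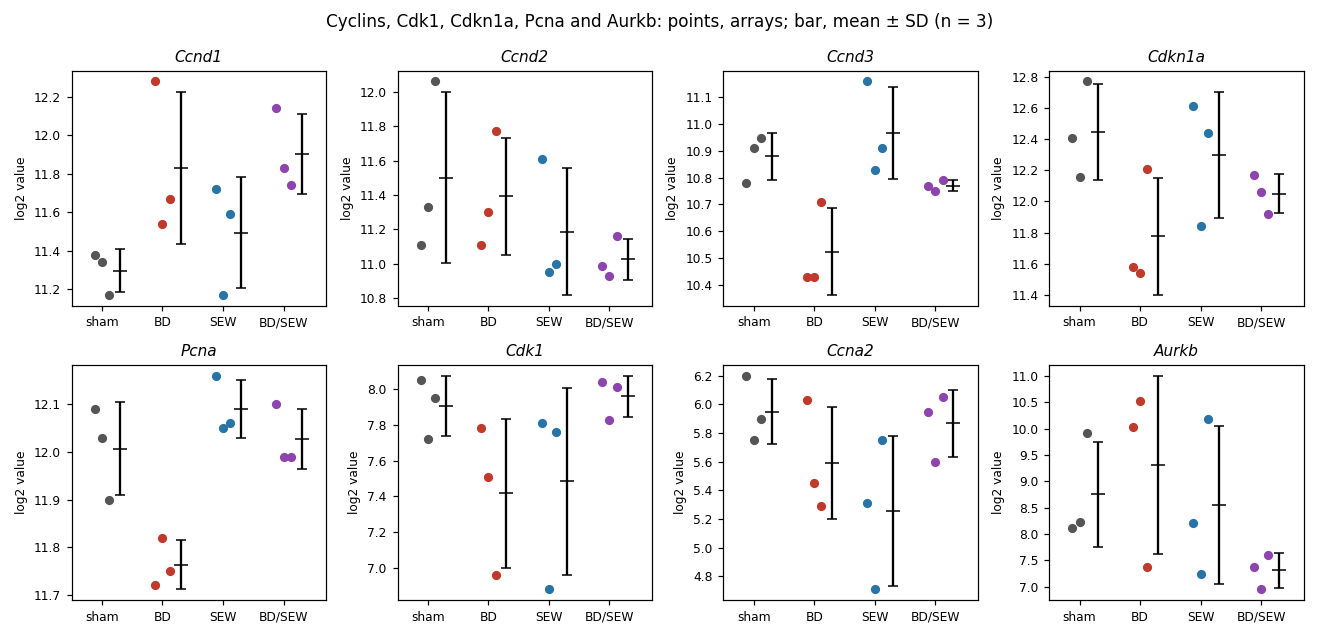
Log2 values of the D-type cyclin genes, Cdkn1a, Pcna, Cdk1, Ccna2 and Aurkb by group, with a point for each array and a bar for the mean ± SD (n = 3); each panel has its own axis range. Ccnd1 is higher and Ccnd3 and Pcna are lower on the BD arrays than on the sham arrays without passing the test, and Aurkb is split within groups.

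Aurkb, the kinase of the chromosomal passenger complex, was singled out after its values were seen. It was 8.12, 8.22 and 9.91 in sham, 10.03, 10.53 and 7.37 in BD, 8.2, 7.24 and 10.19 in SEW, and 7.38, 6.95 and 7.6 in BD/SEW. One sham, 2 BD and 1 SEW array lay at 9.91 or above and the other 8 arrays at 8.22 or below, so the split ran within groups. Its range over the arrays was 3.58 log2 units, against 0.34 to 2.19 for the other 41 genes. Birc5, which encodes survivin of the same complex, was 6.54, 6.55 and 7.24 in sham, 6.55, 6.4 and 6.65 in BD, 6.34, 5.98 and 6.19 in SEW, and 6.57, 6.34 and 6.76 in BD/SEW. Sham replicate 3 was the highest sham array for both genes, while the BD and SEW arrays that were high for Aurkb were not the highest of their group for Birc5. Aurkb passed in no comparison, with a difference of -2 ± 0.86 between BD/SEW and BD (adjusted p = 0.91).

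The effect of the agonist after brain death is addressed by comparing BD/SEW with BD. By limma 0 of the 42 genes passed, against 0.0141% of all genes, and 7 (16.7%) had an unadjusted p under 0.05, against 5.44%. The median was 0.18 with 36 genes above 0, and 9 did not overlap (21.4%, against 12.4% of all genes, 7.9% higher and 4.55% lower), each of them higher in BD/SEW. The neutrophil markers, 6 of 6, also lay above BD with no overlap (median difference 0.85), with 0 called by limma and 2 at an unadjusted p under 0.05, and their part was not tested. Pcna differed by 0.26 ± 0.08 (95% interval 0.09 to 0.43, adjusted p = 0.78), Lmnb1 by 0.38 ± 0.11 (adjusted p = 0.78) and Cdk1 by 0.54 ± 0.25 (adjusted p = 0.91).

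The distance of treated brain-dead animals from sham is given by BD/SEW against sham. By limma 0 of 42 genes passed, against 2.87% of all genes, 1.7% higher, with 3 (7.14%) at an unadjusted p under 0.05, against 17.5%. The median was -0.06, with 18 genes above 0 and 24 below. The groups did not overlap in 7 (16.7%, 4 higher and 3 lower), against 25.9% of all genes, 13.7% higher. Of 17 cardiac markers 16 lay below sham without overlap (median difference -3.26), with 0 called by limma. Of 9 adipose markers 3 fell (median -2.86), and of 5 airway markers 2 fell (median -2.52). All 6 neutrophil markers were above 0 (median 0.85), with 0 called, and of 9 erythroid markers 1 rose. Their part, also in the wider lists below, was not tested. The difference was -0.04 ± 0.27 for Mki67 (95% interval -0.62 to 0.55), 0.34 ± 0.11 for Lmnb1 (adjusted p = 0.14) and 0.61 ± 0.2 for Ccnd1 (1.52-fold, adjusted p = 0.13). Ccnd1 passed with the compared arrays only (adjusted p = 0.041), with array weights (adjusted p = 0.021) and with the replicate number as a block. It passed in 0 of the 6 fits with an array left out.

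A wider set of cell cycle genes was read beside these. Of 35 measured genes of the replication and mitosis machinery, 3 fell and 0 rose in SEW against sham (8.57%, against 5.84% of all genes), with a median of -0.24 and 31 below 0, and 1 rose and 1 fell in BD/SEW against SEW (5.71%, against 9.79% of all genes). By limma 0 of the 35 passed in either comparison without SEW replicate 2, against 3.53% and 8.4% of all genes. At an unadjusted p under 0.05 were then 7 and 3 of the 35, against 3179 and 3024 of 14217 genes. The median of SEW against sham was then -0.14 with 25 below 0. Pttg1, which encodes securin, the guard of sister chromatid cohesion, was 8.2, 7.85 and 7.9 in sham, 7.33, 7.09 and 7.41 in SEW, and 8.1, 7.73 and 7.96 in BD/SEW. Its SEW arrays lay below the others, and it fell by 0.71 ± 0.16 in SEW against sham (adjusted p = 0.028) and rose by 0.65 ± 0.16 in BD/SEW against SEW. These differences were -0.61 ± 0.17 and 0.56 ± 0.17 without SEW replicate 2, and neither passed (adjusted p = 0.071 for both). Ttk, a spindle checkpoint kinase gene, fell by 0.67 ± 0.16 in SEW against sham (adjusted p = 0.04) at levels under the lower quartile of the arrays, a call lost without SEW replicate 2 (-0.49 ± 0.14, adjusted p = 0.089). Melk fell by 0.61 ± 0.15 in SEW against sham (adjusted p = 0.043), and Rpa2 fell by 0.5 ± 0.14 in BD/SEW against SEW (adjusted p = 0.039). Neither call held without SEW replicate 2. By limma 0 of the 35 passed in the remaining comparisons. At an unadjusted p under 0.05 were 3 between BD and sham (8.57%, against 11% of all genes) and 0 between BD/SEW and BD (against 5.44%). There was 1 between BD/SEW and sham (2.86%, against 17.5%), and there were 10 in the interaction (28.6%, against 12.5%). Without SEW replicate 2 it was 7 of 35 in the interaction, against 1680 of 14217 genes.

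Of 31 regulators, such as E2F factors and kinase inhibitors, 1 fell in SEW against sham (3.23%, against 5.84% of all genes), 2 rose and 2 fell in BD/SEW against SEW (12.9%, against 9.79%), and 1 rose in BD/SEW against sham (3.23%, against 2.87%). These shares lay near or below those of all genes. Without SEW replicate 2 the share was 0% in SEW against sham (against 3.53% of all genes) and 12.9% in BD/SEW against SEW (against 8.4%). By limma 0 passed in the other comparisons (6 at an unadjusted p under 0.05 between BD and sham, 19.4% against 11% of all genes, 2 between BD/SEW and BD, 6.45% against 5.44%, and 5 in the interaction, 16.1% against 12.5%). Cdkn2d, an inhibitor of the D-type cyclin kinases, was 9.23, 9.85 and 9.19 in SEW and 11.06, 10.68 and 10.77 in BD/SEW, and rose by 1.41 ± 0.23 (adjusted p = 0.0028), and by 1.63 ± 0.22 without SEW replicate 2. Cdkn2b, an inhibitor of the same family, was 7.15, 7.31 and 6.92 in sham, 8.76, 7.78 and 7.77 in BD, and 8.26, 8.49 and 8.04 in BD/SEW. It rose by 1.14 ± 0.24 in BD/SEW against sham (adjusted p = 0.03). Its BD arrays lay above all sham arrays as well, without passing. For Cdkn2d and Cdkn2b the groups of the called comparison did not overlap. Also called in BD/SEW against SEW were Fzr1, which fell by 0.55 ± 0.11 (adjusted p = 0.01), and Chek1, by 0.37 ± 0.1 (adjusted p = 0.039). E2f8, at levels under the lower quartile, fell by 0.42 ± 0.11 in SEW against sham (adjusted p = 0.043). It rose by 0.38 ± 0.11 in BD/SEW against SEW (adjusted p = 0.044). Without SEW replicate 2 Fzr1, Chek1 and Mybl2 passed in BD/SEW against SEW, and E2f8 did not.

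Of 12 measured p53 targets other than Cdkn1a, 2 fell in SEW against sham (16.7%, against 5.84% of all genes), 2 rose and 2 fell in BD/SEW against SEW (33.3%, against 9.79%) and 1 rose in BD/SEW against sham (8.33%, against 2.87%), with 0 called by limma in the other comparisons (4 at an unadjusted p under 0.05 between BD and sham, 33.3% against 11% of all genes, 0 between BD/SEW and BD, against 5.44%, and 4 in the interaction, 33.3% against 12.5%). Gadd45a, a growth arrest gene that several stresses induce, was 12.3, 11.85 and 11.38 in sham, 10.87, 11.35 and 10.72 in SEW, and 12.7, 12.33 and 12.35 in BD/SEW. It fell by 0.86 ± 0.22 in SEW against sham (adjusted p = 0.042), and by 1.05 ± 0.22 without SEW replicate 2 (adjusted p = 0.03). Gadd45a rose by 1.48 ± 0.22 in BD/SEW against SEW (adjusted p = 0.0015), and by 1.66 ± 0.22 without SEW replicate 2. Its interaction, which did not pass on all arrays (1.19 ± 0.31, adjusted p = 0.11), passed without that array (1.38 ± 0.29, adjusted p = 0.046). Plk2, a Polo-like kinase gene that responds to stress, fell by 0.62 ± 0.14 in SEW against sham (adjusted p = 0.027), rose by 1.2 ± 0.14 in BD/SEW against SEW (adjusted p = 0.00038), and rose by 0.57 ± 0.14 in BD/SEW against sham (adjusted p = 0.049). Leaving out SEW replicate 2, Plk2 fell by 0.68 ± 0.15 against sham and rose by 1.25 ± 0.15 in BD/SEW against SEW. The genes that fell in BD/SEW against SEW, named after their values were seen, were Sesn1, by 1.09 ± 0.22 (adjusted p = 0.0094), and Zmat3, by 0.44 ± 0.1 (adjusted p = 0.016). The median of the list there was -0.05, with 7 of 12 below 0, and Cdkn1a differed by -0.25 ± 0.23 without passing (adjusted p = 0.58). Without SEW replicate 2, 1 of the 12 rose and 2 fell in SEW against sham (25%, against 3.53% of all genes). In BD/SEW against SEW 2 rose and 2 fell without that array (33.3%, against 8.4%).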

How the data were processed

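The authors deposited log2 probe set values with 2 decimals for 12 Affymetrix arrays hybridised with RNA labelled from 6 ug each. The submitters' processing notes list MAS5, RMA and affy, without role or version. The arrays differed by at most 0.22 at any rank. Of 31042 probe sets, 20826 had 1 gene symbol in the platform annotation, 436 had several and 9780 none. Per gene the probe set with the highest mean was kept (14217 genes).

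A mean per group was fitted over all 12 arrays with limma 3.58.1 in R 4.3.3 (moderated variances with a mean trend, two-sided). Adjusted p-values are Benjamini-Hochberg values over all genes, and a gene passed under 0.05. The fit was tested on simulated data. The members, gene lists, tests and alternatives were chosen with earlier results of these data known. Values on every array are given for those of the 42 genes called in any of the 6 comparisons. They are also given for Mki67, Top2a, Pcna, Cdk1, the D-type cyclins and Cdkn1a. Of the wider lists, up to 3 called genes per comparison, those with the smallest p, were to be named. The other called genes of these lists were added after their values were seen. Motifs were searched on both strands.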

Additional observations from a re-analysis of the deposited data

Results flagged for a closer look

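For Lmnb1 and Mki67 the interaction term of the fit passed (limma), so the brain-death difference was not the same with and without the agonist. For both genes the SEW arrays lay below all others. The labels leave unsaid if SEW animals had the sham procedure, and a lack of it cannot be told apart from the agonist. For Lmnb1 the interaction was 1.84 ± 0.16 (log2, adjusted p = 0.00071), with a brain-death difference of -0.04 without the agonist and of 1.8 with it. For Mki67 it was 1.92 ± 0.38 (adjusted p = 0.04, and 0.016 to 0.11 over the alternatives), with differences of -0.47 and 1.45. Mki67 was called in only 2 of the 12 fits with an array left out. The causes were not tested.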

How the results depend on the processing

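The number of genes called kept within 1.5 times its value in 8 of 9 alternatives for BD against sham and SEW against sham, 9 of 9 for BD/SEW against BD and BD/SEW against SEW, 6 of 9 for BD/SEW against sham and 6 of 8 for the interaction. With array weights 1 of the 42 genes passed in BD against sham (Pcna), against 2.69% of all genes. In BD/SEW against sham 6 of 42 passed with these weights (Mcm4, Cdt1, Rfc4, Ccnd1, Kif11 and Lmnb1), against 18.9% of all genes. Neither count was above the share of all genes. In BD/SEW against sham the count was 1, Ccnd1, with the compared arrays only, against 4.82% of all genes. It was 1, also Ccnd1, with the replicate number as a block, against 3.04% of all genes. With the cardiac covariate the count was 1 in SEW against sham and 1 in the interaction (Lmnb1 in both), against 0.169% and 0.57% of all genes. Over all genes, 24 passed in SEW against sham with that covariate and 830 without it. With sham replicate 3 and the second BD and SEW arrays all left out the count was 1 in the interaction (Lmnb1), against 2.94% of all genes. Leaving out each array in turn gave counts of 3 to 6 between SEW and sham and 4 to 6 between BD/SEW and SEW. Shares of all genes in those fits ran from 2.26% to 3.9% and from 5.56% to 9.57%. In the interaction the counts were 1 to 2, against 0.267% to 1.65% of all genes. Only the fits without sham replicate 2 or BD replicate 1 kept Mki67 there. In the other comparisons the counts were 0, where at most 2.26% of all genes passed. Deviations of same-numbered arrays from their group means correlated between -0.19 and 0.38 across genes, over 0.1 in 8 of 18 pairs. Of the 12 arrays, 9 correlated best, among the arrays of other groups, with an array of their own number. The labels state no pairing, and these values do not settle the question. With the replicate number as a block 6 genes passed between SEW and sham, Mcm3 (adjusted p = 0.04) and Birc5 beside the 4 called without it. Between BD/SEW and SEW 6 passed with that block, and 2 in the interaction. The shares of all genes were 7.16%, 10.6% and 1.03% in these 3 comparisons. The cause of each shift was not tested. Over the pairs of a named gene's result and an alternative that kept their sign, 37 lost a call, 9 gained one and 1147 did neither. Pairs that changed sign with no call in either fit were left out of these counts, and no called value reversed. Signal over background was not measured.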
